A study of Mus musculus with 4 samples.

Results

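The Wnt signalling genes described here were chosen by name. They are the genes whose symbols mark them as Wnt ligands (*Wnt*), Frizzled receptors (*Fzd*), secreted Frizzled-related proteins (*Sfrp*), Dickkopf proteins (*Dkk*), R-spondins (*Rspo*) or *Tcf7* family factors, with *Lef1*, *Axin1*, *Axin2*, *Lrp5*, *Lrp6*, *Ctnnb1*, *Ror1*, *Ror2*, *Wif1*, *Nkd1* and *Znrf3* added. The rule found 55 genes among 18193 genes with a named probe set on the arrays. The same rule matched 56 symbols in a RefSeq gene table, and the 1 without a value here was *Tcf7*. By role, the 55 were 19 ligands, 14 receptors or co-receptors, 9 secreted inhibitors, 4 secreted activators, 5 intracellular or nuclear components and 3 feedback targets, and *Fzd10os*, a transcript antisense to *Fzd10*, matched by its name alone.

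Mouse embryos of 2 genotypes were compared on Affymetrix GeneChip mouse genome arrays, with 1 array for each group. The groups were *Hand2* mutant heads and wild-type heads at E12.5, and *Hand2* mutant embryos and wild-type embryos at E11.5, for which the labels give the whole body as the tissue. The mutants carried *Hand2* CAT/+ and *Wnt1-Cre* (hereafter Hand2NC), so that the Cre recombinase, driven by *Wnt1* sequence, switched on a *Hand2* transgene under the CAG promoter in the neural crest. All 4 groups were on a mixed C57BL/6J x ICR background, wild-type littermates served as controls, and the RNA of several embryos was pooled before it was hybridised. The 4 arrays hold no embryos with *Wnt1-Cre* alone or *Hand2* CAT/+ alone, so the Cre transgene and the gain of *Hand2* cannot be told apart. With a single array for each group, genotype differences cannot be set against replicate spread, and no p-value is given.

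Wnt ligands are secreted lipid-modified proteins that bind Frizzled receptors together with the co-receptors Lrp5 and Lrp6, or with Ror receptors. In the beta-catenin branch, binding stops the Axin complex from destroying beta-catenin, which then enters the nucleus and activates genes with Tcf and Lef factors. Sfrp proteins and Wif1 bind ligands outside the cell, Dkk1 blocks Lrp co-receptors, and R-spondins keep Frizzled receptors at the surface by removing the ubiquitin ligases Znrf3 and Rnf43. In the embryonic head these signals pass between facial ectoderm and neural crest mesenchyme, and *Wnt1* itself marks the dorsal neural tube and the border of midbrain and hindbrain.

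The arrays carry MAS5 signals on a linear scale, 1 per probe set, brought to a 2% trimmed mean of 500. A gene entered the counts of a stage if its signal reached the array median in at least the brighter of the 2 genotypes. The medians were 102 in Hand2NC and 106 in wild-type at E12.5, and 101 in Hand2NC and 97.2 in wild-type at E11.5. Of the 3 probe sets of *Hand2*, the targeted gene, 1 had signals of 706 in Hand2NC and 33.4 in wild-type heads at E12.5. At E11.5 it had 314 in Hand2NC and 67.1 in wild-type. The brightest *Hand2* probe set had 839 in Hand2NC and 592 in wild-type at E12.5, and 1244 in Hand2NC and 1214 in wild-type at E11.5. The remaining one was near 0, with signals from 1.59 to 7.82. Its log2 changes were -0.58 at E12.5 and -2.30 at E11.5. The labelled tissues were set beside markers. Relative to E11.5 embryos, E12.5 heads of both genotypes had 2-fold or more signal in 4 of 11 genes of brain and head regions. They were lower by that factor in 8 of 9 liver genes and 10 of 10 posterior *Hox* genes. Among all genes, 1.98% were higher and 1.85% lower. At E12.5, 2 liver genes and 0 posterior *Hox* genes passed the filter. Most of these genes thus entered only through the E11.5 arrays, where they were high. Summed over all 14 posterior *Hox* genes with a probe set, signals were 235 in Hand2NC and 292 in wild-type heads at E12.5. At E11.5 the sums were 5459 in Hand2NC and 5212 in wild-type. The Hand2NC array at E12.5 lacked the Y-linked signal of the others (*Kdm5d*, 8.72 in Hand2NC and 677 in wild-type). Its *Xist* signal was 16187, against 8988 in wild-type. The sex of the pooled embryos thus differed with genotype at E12.5, and the 2 cannot be told apart there. Of the 55 Wnt genes, 0 lie on X or Y, and the part of sex in their differences was not tested.

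Few Wnt genes reached a 2-fold difference between the genotypes, and few of all genes did. With such low shares among all genes, counts over 43 or 44 genes cannot set the Wnt genes apart. At E12.5, 43 of the 55 lay above the filter and 0 of them reached a 2-fold difference in either direction, where 0.203% of 11814 genes were higher and 0.195% lower. At E11.5, 44 lay above the filter, of which 0 passed the 2-fold cutoff upwards and 1, *Wnt3a*, passed it downwards, where 0.177% of 11883 genes were higher and 0.269% lower. The median log2 change of the Wnt genes above the filter was -0.01 at E12.5 and 0.03 at E11.5, against 0.00 and -0.01 for all genes. In samples of whole heads or embryos, fewer cells of a type and less RNA per cell cannot be told apart.

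The 11 Wnt genes below the filter at both stages were the ligands *Wnt1*, *Wnt2b*, *Wnt3*, *Wnt8a*, *Wnt9b*, *Wnt10b* and *Wnt16*, the co-receptor *Lrp5*, *Rspo4*, *Dkk4* and *Sfrp5*. *Wnt3a* was below it at E12.5 alone. Signals of these genes ran from 4.27 to 96.8 on the 4 arrays, leaving out *Wnt3a*, and their local spreads ran from 0.41 to 2.01, so that their log2 changes are imprecise.

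**Figure D1:**
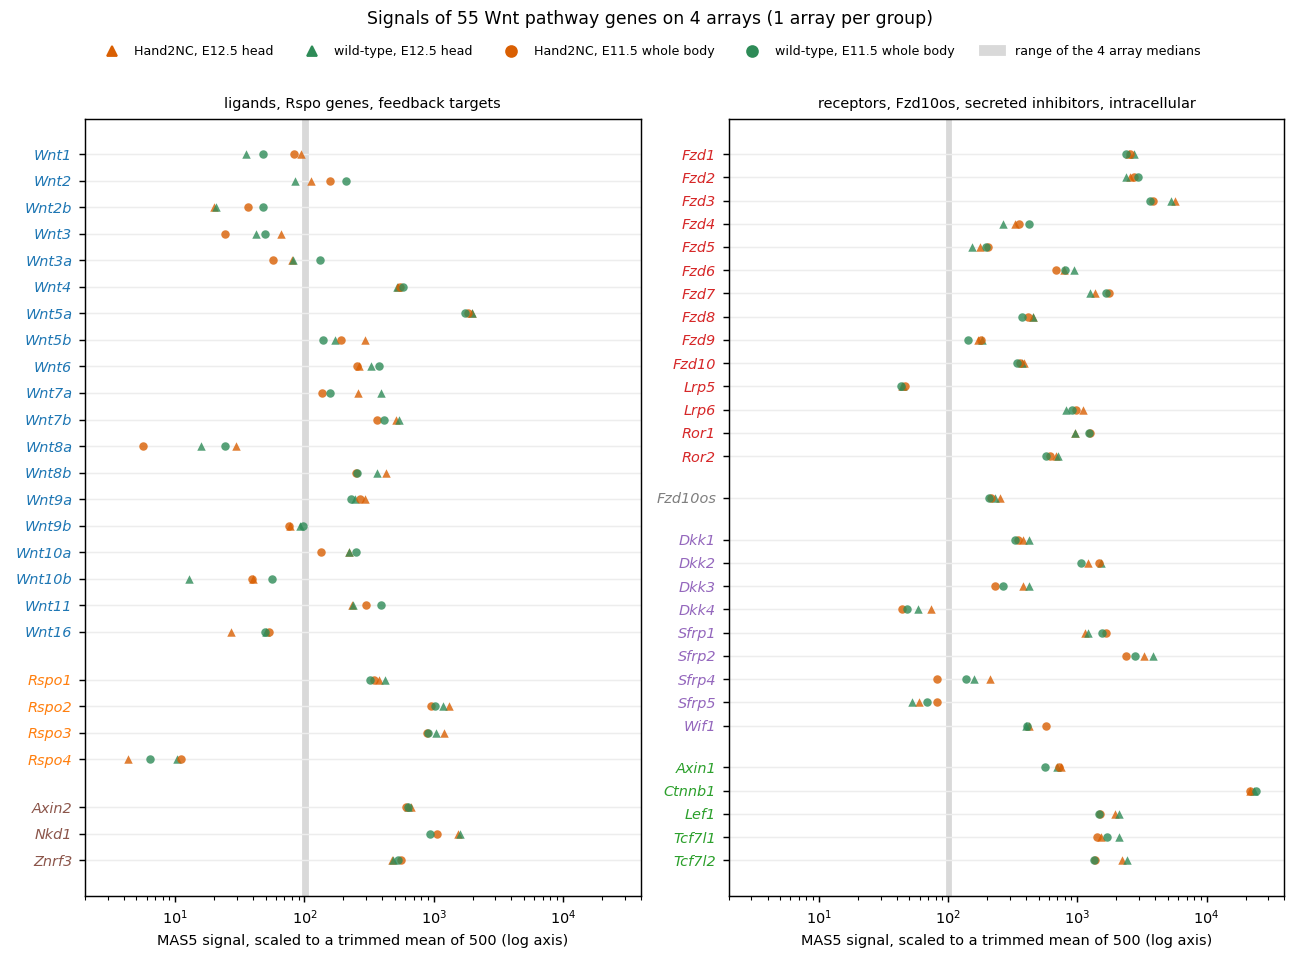
Signals of the 55 Wnt pathway genes on the 4 arrays, with MAS5 signal on a log axis and 1 row per gene, coloured by role. Orange points are Hand2NC and green points wild-type, triangles are E12.5 heads and circles E11.5 whole bodies, and the grey band is the range of the array medians, 97.2 to 106. For most genes above the band the 4 points lie close together.

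To set each change against genes of like brightness, the local spread was used. This is a median-based standard deviation of log2 changes among the 500 genes closest in mean signal. Noise of measurement and true differences both enter it, so it serves as a yardstick and not as a test. At E12.5, 9 Wnt genes were higher and 8 lower in Hand2NC by more than 1 local spread, against 17.0% and 16.4% of all genes. At E11.5, 6 were higher and 11 lower, against 16.2% and 17.5% of all genes. Changes of more than 2 local spreads were seen in 6 of 43 Wnt genes at E12.5, against 7.55% of all genes. Of these, 2 were higher (3.83% of all genes) and 4 lower (3.72%). At E11.5 they were seen in 8 of 44 Wnt genes, against 7.08% of all genes, with 3 higher (3.82%) and 5 lower (3.26%).

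Of the 43 Wnt genes above the filter at both stages, 5 were lower in Hand2NC by more than 1 local spread at both, *Tcf7l1*, *Wnt6*, *Sfrp2*, *Fzd6* and *Ctnnb1*. Among all 11449 genes above the filter at both stages, 2.90% did this. *Wnt5b* was the only Wnt gene higher at both stages by this measure, where 2.73% of all genes were. In the opposite case, 4 Wnt genes differed by more than 1 local spread in contrary directions at the 2 stages, *Dkk2*, *Sfrp4*, *Fzd4* and *Wnt2*, as did 6.70% of all genes.

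*Tcf7l1* encodes an HMG-box factor that mainly represses Wnt target genes when beta-catenin is absent. Its signal was 1517 in Hand2NC and 2113 in wild-type heads at E12.5, and 1415 in Hand2NC and 1698 in wild-type at E11.5. Both mutant arrays thus lay below both wild-type arrays. The log2 change was -0.48 (local spread 0.13) at E12.5 and -0.26 (local spread 0.12) at E11.5. The other probe set of *Tcf7l1* had signals of 747 in Hand2NC and 889 in wild-type at E12.5, a log2 change of -0.25, and of 902 in Hand2NC and 873 in wild-type at E11.5, a log2 change of 0.05. The lower signal was therefore seen by both probe sets at E12.5 and by 1 of them at E11.5.

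*Wnt6* encodes a ligand made mainly by surface ectoderm. It had signals of 264 in Hand2NC and 328 in wild-type at E12.5, and of 257 in Hand2NC and 379 in wild-type at E11.5. The log2 changes were -0.31 at E12.5 (local spread 0.22) and -0.56 at E11.5 (0.23). Its other probe set, dimmer but above the filter, went the same way at both stages, with log2 changes of -0.52 at E12.5 and -0.41 at E11.5. This other probe set is of a class that may bind several transcripts.

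*Sfrp2*, a secreted ligand-binding protein of mesenchyme and neural tissue, had signals of 3291 in Hand2NC and 3866 in wild-type at E12.5, and of 2370 in Hand2NC and 2781 in wild-type at E11.5. The log2 change was -0.23 at both stages, at local spreads of 0.10 and 0.12, and *Sfrp2* has 1 probe set. *Fzd6*, a Frizzled receptor known for planar cell polarity in skin, had signals of 787 in Hand2NC and 941 in wild-type at E12.5, and of 681 in Hand2NC and 802 in wild-type at E11.5. Its log2 changes of -0.26 and -0.24 rest on 1 probe set, since the other 2 lay below the filter. With the mean over all 3, dim ones included, the log2 change of *Fzd6* was 0.71 at E12.5 and -1.23 at E11.5. *Ctnnb1*, which encodes beta-catenin, had signals of 21793 in Hand2NC and 23118 in wild-type at E12.5, and of 21817 in Hand2NC and 24014 in wild-type at E11.5. Its log2 changes were -0.09 at E12.5 and -0.14 at E11.5. For *Ctnnb1* the change passed the local spread only narrowly, and it no longer did so at both stages when the arrays were centred on their medians, quantile normalised or corrected by loess. Its other 2 probe sets, both above the filter, changed less. The brighter had log2 changes of -0.06 at E12.5 and -0.05 at E11.5, and the dimmer had -0.01 and -0.03.

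*Wnt5b*, a ligand that signals mainly without beta-catenin, had signals of 293 in Hand2NC and 171 in wild-type at E12.5, and of 192 in Hand2NC and 139 in wild-type at E11.5. Its log2 change was 0.78 (local spread 0.25) at E12.5, the largest change of a Wnt gene above the filter at that stage, and 0.46 (local spread 0.28) at E11.5. The other probe set of *Wnt5b* had a log2 change of 0.30 at E11.5 but went the opposite way at E12.5, with signals of 77.0 in Hand2NC and 110 in wild-type. At E12.5 it passed the filter only through wild-type, since 77.0 lies under the median of its array. The mean over both probe sets gave a log2 change of 0.13 at E12.5 and 0.38 at E11.5. Both probe sets of *Wnt5b* belong to the classes that may bind several transcripts.

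**Figure D2:**
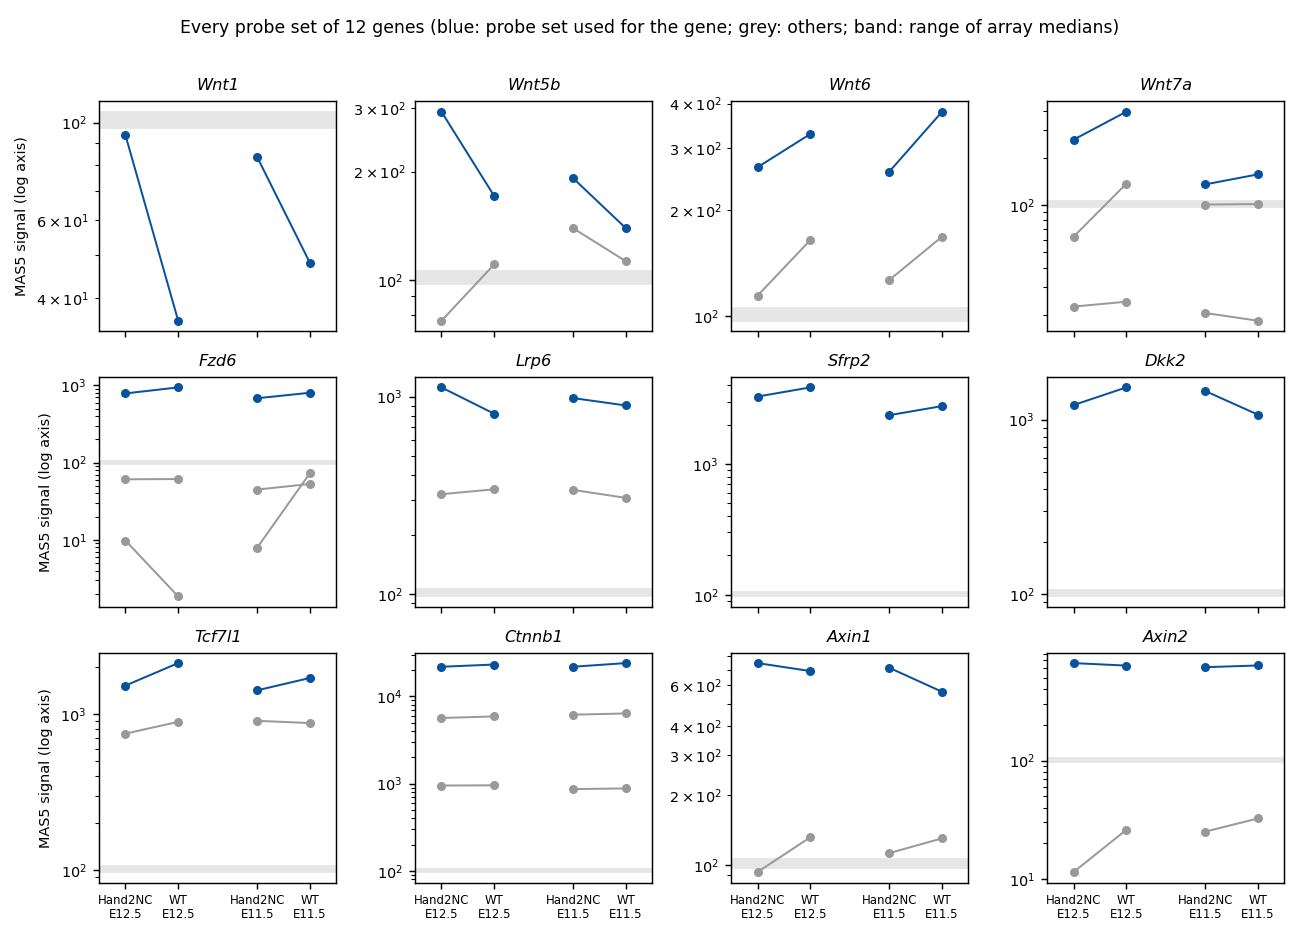
Signals of every probe set of 12 Wnt pathway genes on the 4 arrays (log axis, 1 array per group), with Hand2NC left of wild-type at each stage. Blue lines join the probe set used for the gene and grey lines the others, and the grey band is the range of the array medians. Both *Wnt6* lines slope up to wild-type at both stages, whereas the 2 *Wnt5b* lines cross in direction at E12.5.

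Promoter sequence is shown for 4 of the genes that differed the same way at both stages, 1 stretch each from the 250 bases before an annotated start (RefSeq, GRCm38.p6). Of the 55 Wnt genes, 36 had 44 such windows. Capitals mark E-boxes, CANNTG, the motif that basic helix-loop-helix factors such as Hand2 bind, and CTTTGAT, a motif of Tcf and Lef factors. Both strands were searched, and the 2 motifs do not overlap in the stretches shown. The *Wnt5b* stretch lies at chr6:119449387-119449636 on the minus strand and is 1 of 3 annotated for the gene, the *Wnt6* stretch at chr1:74771642-74771891 on the plus strand, the *Tcf7l1* stretch at chr6:72789046-72789295 on the minus strand and the *Sfrp2* stretch at chr3:83766071-83766320 on the plus strand.
Wnt5b: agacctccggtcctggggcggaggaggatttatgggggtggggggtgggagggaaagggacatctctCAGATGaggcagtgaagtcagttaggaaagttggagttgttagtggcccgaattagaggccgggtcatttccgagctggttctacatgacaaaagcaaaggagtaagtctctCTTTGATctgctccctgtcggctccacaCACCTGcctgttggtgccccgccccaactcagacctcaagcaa
Wnt6: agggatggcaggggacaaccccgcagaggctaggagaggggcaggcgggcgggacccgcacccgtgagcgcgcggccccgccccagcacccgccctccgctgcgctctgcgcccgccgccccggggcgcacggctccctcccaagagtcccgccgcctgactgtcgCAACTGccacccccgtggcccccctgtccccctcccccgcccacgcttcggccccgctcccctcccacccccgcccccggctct
Tcf7l1: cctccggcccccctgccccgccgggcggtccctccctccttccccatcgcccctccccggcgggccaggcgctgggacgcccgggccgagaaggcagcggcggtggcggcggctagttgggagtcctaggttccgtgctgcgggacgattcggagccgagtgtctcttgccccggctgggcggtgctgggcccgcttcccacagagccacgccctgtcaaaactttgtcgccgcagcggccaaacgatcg
Sfrp2: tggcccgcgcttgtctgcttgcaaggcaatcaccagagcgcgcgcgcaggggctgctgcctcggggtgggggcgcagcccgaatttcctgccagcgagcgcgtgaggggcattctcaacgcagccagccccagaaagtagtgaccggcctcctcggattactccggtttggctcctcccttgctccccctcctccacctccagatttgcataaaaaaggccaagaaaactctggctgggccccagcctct

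The *Wnt5b* stretch held 2 E-boxes, 1 of which reads CATCTG on the other strand, and 1 CTTTGAT. It is the one with the most matches of the 3 *Wnt5b* windows, and of the other two 1 window held 1 E-box, 1 held none, and neither held CATCTG or CTTTGAT. The *Wnt6* stretch held 1 E-box, and the *Tcf7l1* and *Sfrp2* stretches held neither motif. The 2 windows of *Ctnnb1*, which are not printed, held neither motif as well. Over all 32851 windows of this length, 66.2% held CANNTG, 14.4% held CATCTG and 3.21% held CTTTGAT. Among the 44 windows of Wnt genes, 25 held CANNTG, 3 held CATCTG and 2 held CTTTGAT. The matches describe these letters in these windows alone.

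On the log2 scale the largest differences of Wnt genes above the filter were in ligands, while in units of the local spread they were in *Tcf7l1* at E12.5 (-3.68) and *Dkk2* at E11.5 (3.59). At E12.5, 11 of 19 ligands lay above the filter, 3 were higher and 2 lower by more than 1 local spread (17.0% and 16.4% of all genes), and their log2 changes ran from -0.59 to 0.78. At E11.5, 12 lay above it, 1 was higher and 5 were lower (16.2% and 17.5% of all genes), with log2 changes from -1.20 to 0.46 and a median of -0.20. The 5 lower at E11.5 were *Wnt2*, *Wnt3a*, *Wnt6*, *Wnt10a* and *Wnt11*. The ligand median was -0.01 at E12.5, where *Wnt2*, *Wnt5b* and *Wnt9a* were the higher and *Wnt6* and *Wnt7a* the lower ligands.

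*Wnt3a*, a ligand of the tail bud and dorsal neural tube, was the only Wnt gene above the filter and past the 2-fold cutoff. It had signals of 80.4 in Hand2NC and 81.6 in wild-type at E12.5, and of 57.2 in Hand2NC and 131 in wild-type at E11.5. The only array on which it exceeded the median signal was the E11.5 wild-type array. Its log2 change at E11.5 was -1.20 (local spread 0.42), and it was -0.38 when dim signals were raised to the array median. *Wnt10a*, a ligand of the ectoderm and of teeth, had signals of 221 in Hand2NC and 222 in wild-type at E12.5, a log2 change of -0.01. At E11.5 it had 134 in Hand2NC and 251 in wild-type, a log2 change of -0.90 (local spread 0.27). The E11.5 mutant array was thus the low one of the 4. *Wnt11*, a ligand of movements and outgrowth, also differed at E11.5 alone, with 301 in Hand2NC and 390 in wild-type.

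*Wnt7a*, a ligand of brain and dorsal limb ectoderm, had signals of 261 in Hand2NC and 393 in wild-type at E12.5, and of 136 in Hand2NC and 157 in wild-type at E11.5. Its log2 change at E12.5 was -0.59 (local spread 0.25), while a dimmer probe set that also passed the filter had 62.9 in Hand2NC and 137 in wild-type, a log2 change of -1.12. It passed the filter only through wild-type, since 62.9 lies under the median of its array. That was the only other probe set of a Wnt gene past the 2-fold cutoff and above the filter at either stage. Markers of neurons were lower on the same array. Of 13 neuron genes, 8 were lower and 0 higher in Hand2NC at E12.5 by more than 1 local spread, against 16.4% and 17.0% of all genes. Their summed signal there was 48530 in Hand2NC and 53561 in wild-type. At E11.5, 1 of the 13 was lower and 2 were higher, against 17.5% and 16.2% of all genes. The part of the neuron genes in the *Wnt7a* difference was not tested. Among *Wnt4*, *Wnt5a*, *Wnt7b* and *Wnt8b* the log2 change farthest from 0 was 0.22, for *Wnt8b* at E12.5, and all lay within the local spread at both stages by the probe set used. Another probe set of *Wnt5a*, the main ligand of Ror receptors, differed at E12.5, with 543 in Hand2NC and 818 in wild-type, a log2 change of -0.59, and had 0.13 at E11.5.

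*Wnt1*, whose regulatory sequence drives the Cre transgene of the mutants, lay below the filter on all 4 arrays. Its 1 probe set had signals of 93.6 in Hand2NC and 35.6 in wild-type at E12.5, and of 83.4 in Hand2NC and 48.1 in wild-type at E11.5. Both mutant arrays were higher than both wild-type arrays. The log2 changes were 1.40 (local spread 0.54) and 0.80 (local spread 0.51), and without the filter *Wnt1* and *Wnt5b* were the 2 of 55 Wnt genes higher at both stages by more than 1 local spread, against 2.53% of all genes. The genes lower at both stages stayed 5 of 55 without the filter, against 2.94% of all genes. When dim signals were raised to the array medians the log2 change of *Wnt1* was -0.06 at E12.5 and 0.06 at E11.5, so its size rests on signals under the medians. All mutant embryos carried the *Wnt1-Cre* transgene and, by their label, the wild-type ones did not.

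Receptors and co-receptors differed little. Of 14, 13 lay above the filter at both stages, with log2 changes from -0.26 to 0.44 at E12.5 and from -0.25 to 0.34 at E11.5. The medians were 0.06 and 0.07. *Lrp6*, a co-receptor of the beta-catenin branch, had signals of 1112 in Hand2NC and 818 in wild-type at E12.5, and of 982 in Hand2NC and 901 in wild-type at E11.5. Its log2 change at E12.5 was 0.44 (local spread 0.15), but the other probe set of *Lrp6* had 320 in Hand2NC and 339 in wild-type there, a log2 change of -0.08. The *Lrp6* difference therefore rests on 1 of 2 probe sets. *Fzd9* was higher at E11.5 (log2 change 0.34, local spread 0.27), and *Fzd3*, a receptor of axon growth, was higher at E12.5 (log2 change 0.12, local spread 0.09). *Ror1* and *Ror2*, receptors of Wnt5a, had log2 changes between -0.04 and 0.11 by the probe set used, and another probe set of *Ror2* had 91.0 in Hand2NC and 141 in wild-type at E11.5, a log2 change of -0.63 that passed the filter only through wild-type. *Fzd1* was lower at E12.5 (log2 change -0.14, local spread 0.11), and *Fzd2* and *Fzd7* stayed within their local spreads at both stages by the probe set used. Another bright probe set of *Fzd2* had log2 changes of -0.22 at E12.5 and -0.14 at E11.5.

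Secreted inhibitors moved by different amounts and directions. Of the 7 above the filter, 1 was higher and 2 were lower at E12.5 by more than 1 local spread, and 2 were higher and 2 lower at E11.5, where the shares of all genes were between 16.2% and 17.5%. *Dkk2*, a Dickkopf protein that can block or help Lrp co-receptors, had signals of 1212 in Hand2NC and 1530 in wild-type at E12.5, and of 1458 in Hand2NC and 1068 in wild-type at E11.5. Its log2 change was -0.34 (local spread 0.12) at E12.5 and 0.45 (local spread 0.13) at E11.5, so the mutant was low at one stage and high at the other. *Wif1*, which binds Wnt ligands, had signals of 420 in Hand2NC and 399 in wild-type at E12.5, and of 568 in Hand2NC and 405 in wild-type at E11.5, where its log2 change was 0.49 (local spread 0.21). The Hand2NC array at E11.5 was the high one of the 4 for *Wif1*. *Sfrp4* had signals of 210 in Hand2NC and 159 in wild-type at E12.5, and of 82.0 in Hand2NC and 138 in wild-type at E11.5, which gave log2 changes of 0.40 and -0.75. *Dkk1*, *Dkk3* and *Sfrp1* stayed within their local spread at both stages by the probe set used. Over the other probe sets of *Sfrp1*, log2 changes ran from -0.34 to 0.01 at E12.5 and from -0.14 to 0.28 at E11.5. The other probe set of *Dkk3*, nearly as bright, had 325 in Hand2NC and 438 in wild-type at E12.5, a log2 change of -0.43. The other probe set of *Dkk1* had log2 changes of -0.62 at E12.5 and 0.32 at E11.5, and it passed the filter at E12.5 only through wild-type and at E11.5 only through Hand2NC.

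The R-spondins that lay above the filter were *Rspo1*, *Rspo2* and *Rspo3*. *Rspo2*, needed for limb and facial outgrowth, had signals of 1323 in Hand2NC and 1183 in wild-type at E12.5, and of 962 in Hand2NC and 1028 in wild-type at E11.5. *Rspo3* had 1211 in Hand2NC and 1036 in wild-type at E12.5, and 893 in Hand2NC and 898 in wild-type at E11.5. At E12.5 both were higher in Hand2NC by more than 1 local spread, with log2 changes of 0.16 and 0.22, and at E11.5 neither was. *Rspo1* had a log2 change of -0.16 at E12.5, within its local spread.

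Feedback targets of the beta-catenin branch differed little by the probe set used, with log2 changes of 3 genes from -0.07 to 0.07 at E12.5 and from -0.05 to 0.19 at E11.5. *Axin2*, a direct target that helps to destroy beta-catenin, had signals of 664 in Hand2NC and 633 in wild-type at E12.5, and of 613 in Hand2NC and 634 in wild-type at E11.5. Its log2 changes of 0.07 and -0.05 lay within the local spreads of 0.15 and 0.17. *Lef1*, a nuclear partner of beta-catenin and itself a target, had 1963 in Hand2NC and 2109 in wild-type at E12.5, and 1494 in Hand2NC and 1478 in wild-type at E11.5. *Znrf3* had 479.5 in Hand2NC and 487 in wild-type at E12.5, and 561 in Hand2NC and 527 in wild-type at E11.5. None of these 3 genes differed by more than 1 local spread at either stage. The other probe sets of all 3 lay below the filter, and a mean that included them gave log2 changes of -0.56 for *Axin2* at E12.5 and -0.62 for *Znrf3* at E11.5. *Nkd1*, which binds Dishevelled and dampens the signal, had 1540 in Hand2NC and 1612 in wild-type at E12.5, and 1060 in Hand2NC and 930 in wild-type at E11.5, where its log2 change of 0.19 exceeded the local spread of 0.13. A dimmer probe set of *Nkd1* above the filter went the opposite way at both stages, with log2 changes of 0.21 at E12.5 and -0.13 at E11.5.

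*Axin1*, the scaffold of the complex that destroys beta-catenin, had signals of 749 in Hand2NC and 692 in wild-type at E12.5, and of 715 in Hand2NC and 562 in wild-type at E11.5. The log2 change at E11.5 was 0.35 (local spread 0.16), and it was 0.11 at E12.5. The other probe set of *Axin1* went the opposite way at both stages, with log2 changes of -0.50 at E12.5 and -0.21 at E11.5. At E12.5 it had 93.0 in Hand2NC and 132 in wild-type and passed the filter only through wild-type. Across the Wnt genes, 28 other probe sets of 19 genes lay above the filter at E12.5, of which 15 went the same way as the probe set used and 13 the opposite way. At E11.5, 16 of 27 went the same way. Nearly as many other probe sets at E12.5 thus went against the one used as with it. The same share over all genes was not counted, so this is not shown to be particular to the Wnt genes.

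**Figure D3:**
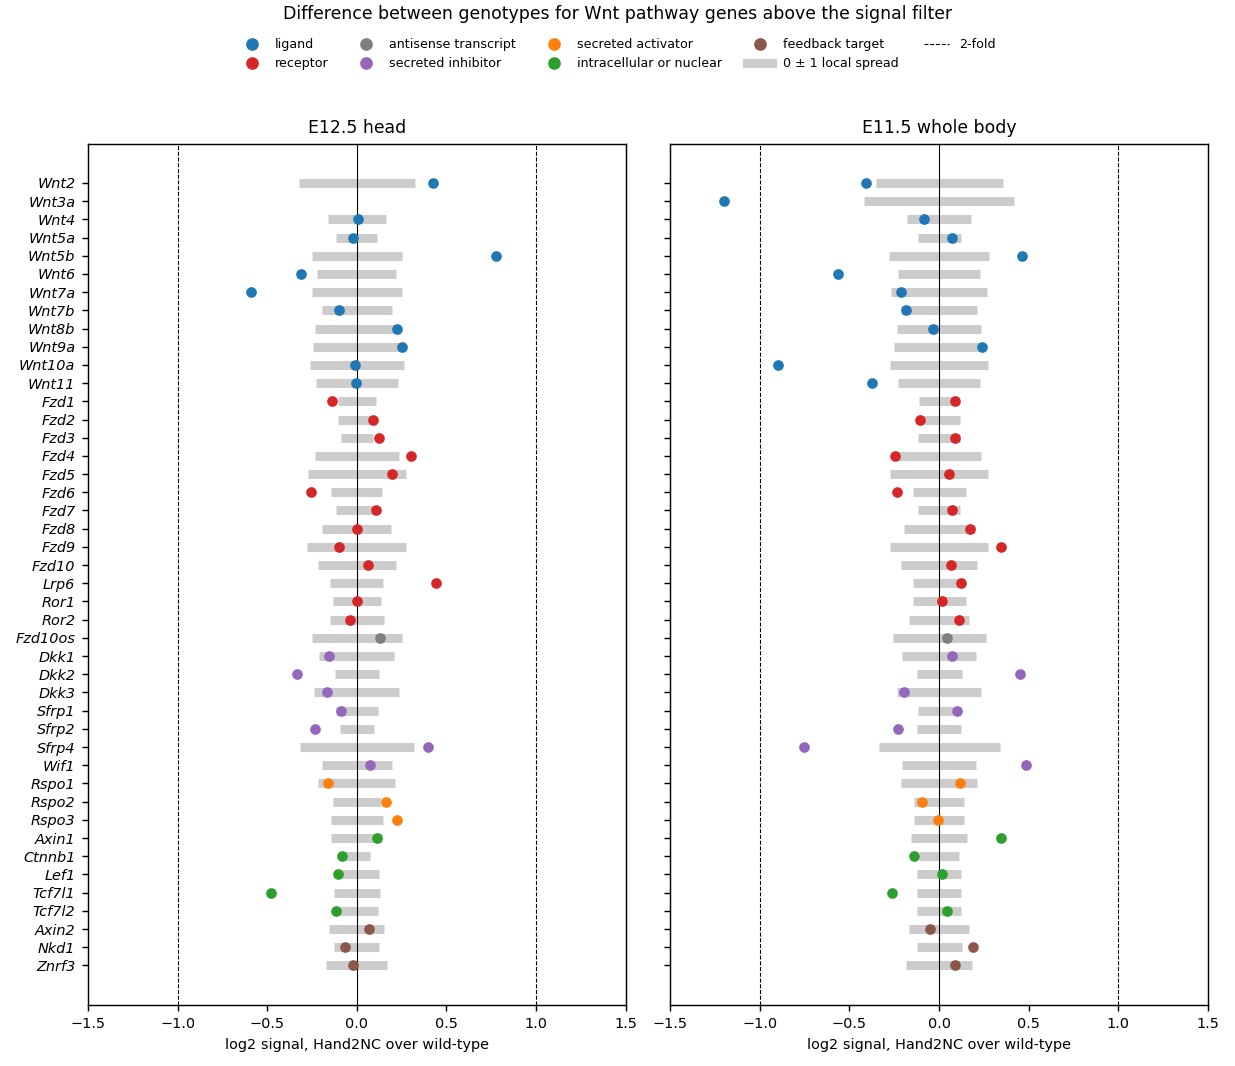
Log2 ratio of Hand2NC to wild-type signal at E12.5 (left) and E11.5 (right), 1 row per Wnt pathway gene above the filter, coloured by role. Grey bars are 1 local spread on each side of 0 and dashed lines the 2-fold cutoff. *Wnt3a* at -1.20 is the only point past a dashed line, and at E12.5 *Tcf7l1*, *Wnt5b*, *Lrp6* and *Dkk2* lie farthest outside their bars for their width.

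**Figure D4:**
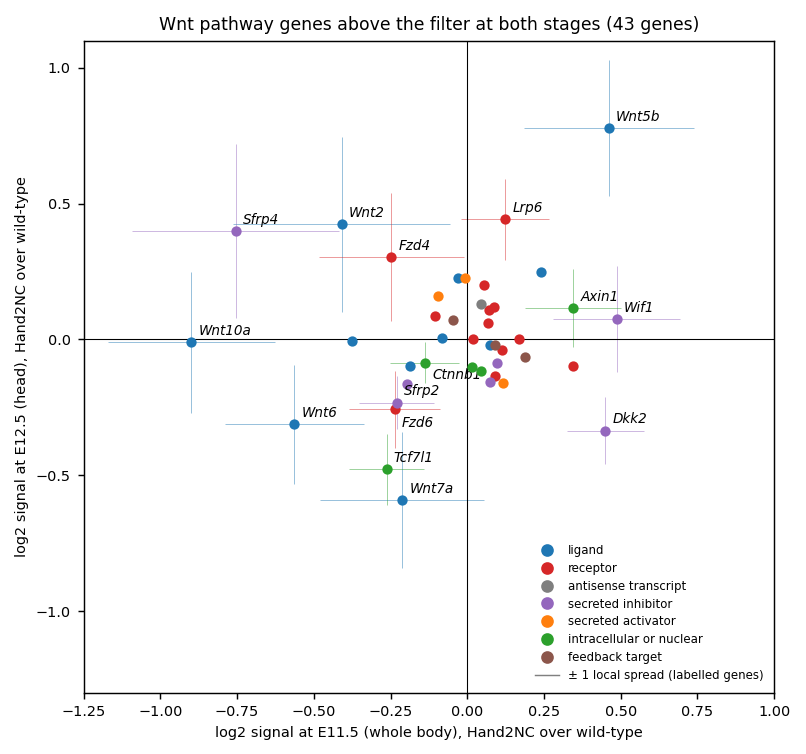
Log2 ratio of Hand2NC to wild-type at E12.5 against that at E11.5 for the 43 Wnt pathway genes above the filter at both stages, with whiskers of 1 local spread for the labelled genes. *Tcf7l1*, *Wnt6*, *Sfrp2*, *Fzd6* and *Ctnnb1* lie at the lower left, *Wnt5b* at the upper right, and *Dkk2*, *Sfrp4*, *Wnt2* and *Fzd4* in the quadrants of opposite direction.

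Other genes of the pathway were counted from a list of 48, of which 42 lay above the filter at each stage and 0 passed the 2-fold cutoff. By more than 1 local spread, 5 were higher and 13 lower in Hand2NC at E12.5, and 6 were higher and 10 lower at E11.5, with medians of -0.05 and 0.01. The shares of all genes were 17.0% higher and 16.4% lower at E12.5, and 16.2% higher and 17.5% lower at E11.5. *Porcn*, *Amer1*, *Gpc3* and *Gpc4* of this list lie on X, and the sex of the pooled embryos differed with genotype at E12.5. The genes named next were chosen after their values were seen. *Lgr5*, an R-spondin receptor and Wnt target, had signals of 347 in Hand2NC and 541 in wild-type at E12.5, and of 277 in Hand2NC and 306 in wild-type at E11.5. *Tle3* and *Tle2*, co-repressors that work with Tcf factors, had log2 changes of -0.31 and -0.47 at E12.5, at local spreads of 0.11 and 0.23. At E11.5 both went the opposite way, with 0.11 and 0.29, at local spreads of 0.11 and 0.23. *Sp5*, a direct target of beta-catenin signalling, had signals of 223 in Hand2NC and 132 in wild-type at E12.5 but of 113 in Hand2NC and 152 in wild-type at E11.5. *Ptk7*, a co-receptor of planar polarity, had log2 changes of -0.27 at E12.5 and -0.49 at E11.5. Targets differed in both directions at E12.5, *Sp5* by 0.75 and *Lgr5* by -0.64.

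Between E12.5 heads and E11.5 whole bodies the Wnt genes above the filter shifted by less than 2-fold in at least 1 genotype. These comparisons reuse the same 4 arrays as the genotype comparisons. Stage and tissue change together here and cannot be told apart. Of 44 Wnt genes above the filter on the brightest array, 0 passed the 2-fold cutoff upwards and 0 downwards in heads of both genotypes, where 1.98% and 1.85% of 12246 genes did. By more than 0.5 on the log2 scale in both genotypes, 6 Wnt genes were higher in heads (9.11% of all genes) and 0 were lower (4.74% of all genes). By any amount, 24 were higher (42.6% of all genes) and 12 lower (35.2%). The medians over the Wnt genes were 0.12 in Hand2NC and 0.20 in wild-type, against 0.04 and 0.03 over all genes.

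The 6 genes higher in heads, described after their values were seen, were *Wnt7a*, *Wnt8b*, *Tcf7l2*, *Dkk3*, *Fzd3* and *Nkd1*. *Wnt7a* had the largest shift, with log2 differences of 0.95 in Hand2NC and 1.32 in wild-type, but a dimmer *Wnt7a* probe set had -0.68 in Hand2NC and 0.43 in wild-type. *Wnt8b*, a ligand of the forebrain midline and hippocampal field, had signals of 429 in Hand2NC and 367 in wild-type heads at E12.5, against 251 in Hand2NC and 256 in wild-type at E11.5. *Tcf7l2*, a Tcf factor strongly expressed in the thalamus, had 2226 in Hand2NC and 2413 in wild-type heads, against 1379 in Hand2NC and 1338 in wild-type at E11.5. The 4 *Tcf7l2* probe sets were all higher in heads in both genotypes. Genes of neurons were also higher in heads, with a median log2 difference of 0.89 in Hand2NC and 1.06 in wild-type over 13 genes, and their part in these shifts was not tested.

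*Wnt2*, a ligand of heart, lung and liver vessels, had the lowest wild-type head signal relative to the body among these genes. It had signals of 113 in Hand2NC and 84.4 in wild-type heads at E12.5, against 158 in Hand2NC and 210 in wild-type at E11.5, which gave log2 differences of -0.48 in Hand2NC and -1.32 in wild-type. The wild-type head signal of 84.4 lay under the median of its array. *Wnt11*, *Sfrp1*, *Fzd7* and *Ror1* were lower in heads too, with log2 differences between -0.73 and -0.35 over both genotypes. For *Sfrp1* the probe sets disagreed. The one used had log2 differences of -0.55 in Hand2NC and -0.36 in wild-type, and the probe set next in brightness had 0.65 in Hand2NC and 0.58 in wild-type. Of 26 other probe sets of the genes that shifted the same way in both genotypes, 12 went the same way as the probe set used. Here too the share over all genes was not counted.

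**Figure D5:**
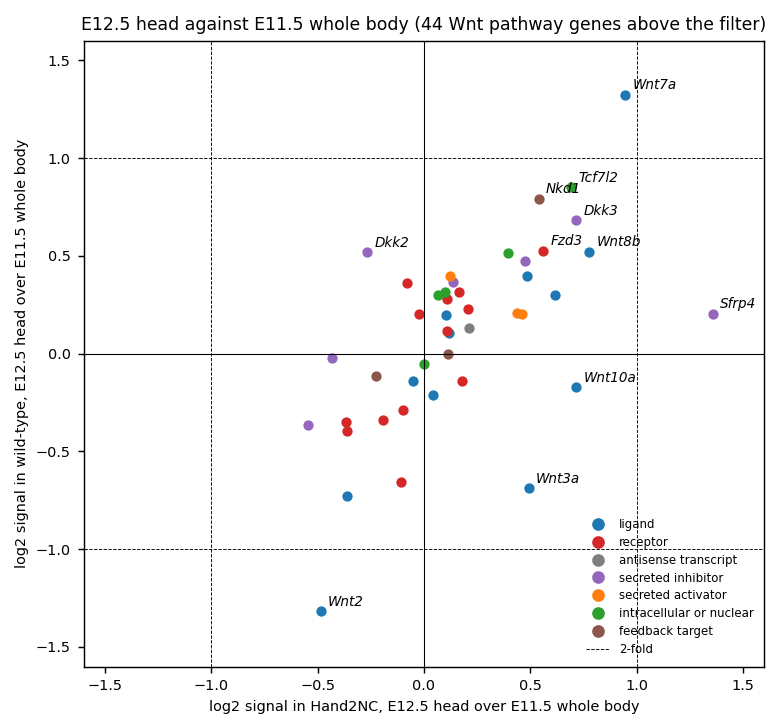
Log2 ratio of E12.5 head to E11.5 whole-body signal in wild-type (vertical) against that in Hand2NC (horizontal) for the 44 Wnt pathway genes above the filter, coloured by role. Dashed lines mark the 2-fold cutoff. No gene lies past it in both genotypes, *Wnt7a* comes nearest at the upper right, and *Sfrp4* passes it in Hand2NC alone and *Wnt2* in wild-type alone. The E11.5 Hand2NC signal of *Sfrp4* (82.0) and the E12.5 wild-type signal of *Wnt2* (84.4) lay under their array medians.

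Markers of other cell types were set beside these results. Of 10 genes of surface epithelium, which makes *Wnt6*, *Wnt10a* and *Fzd6*, 1 was higher and 2 were lower in Hand2NC at E12.5 by more than 1 local spread, and 1 was higher and 3 were lower at E11.5. Their summed signal was 6600 in Hand2NC and 7104 in wild-type at E12.5, and 5863 in Hand2NC and 6315 in wild-type at E11.5, and no marker of the list was below the filter. Of neural progenitor genes, 2 of 10 were higher at E12.5 and 4 of 10 at E11.5, with 0 lower. Of 11 and 9 genes of craniofacial mesenchyme above the filter at E12.5 and E11.5, 2 were higher and 4 lower, and 3 were higher and 3 lower. Of 10 genes of brain and head regions above the filter at E12.5, 0 were higher and 4 lower. At E11.5, 1 of 9 was higher and 1 lower. Of 8 skeletal muscle genes above the filter, 4 were higher and 1 lower at E12.5, and 4 were higher and 0 lower at E11.5. Among 8 myeloid genes, 0 were higher and 3 lower at E12.5, and 0 differed either way at E11.5. These shares stand against 16.2% to 17.5% of all genes in each direction. The part of these cell types in the differences of Wnt genes was not tested.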

How the data were processed

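Expression was measured in pooled RNA on 4 one-colour Affymetrix GeneChip mouse genome arrays, 1 per group. The deposited intensity of each probe set is a linear-scale signal that the authors made with MAS5 (named without a version in the submitters' processing notes). No detection calls were used. All 4 columns matched a sample, and 0 other columns were present. From 45101 probe sets, 64 controls were left out. Signals were rescaled so that the mean of each array, with 2% of values trimmed, was 500, and then turned to log2. Names came from the platform annotation through gene identifiers (RefSeq, GRCm38.p6): 34945 have 1 symbol, and 932 with several and 9160 with none were not used. Where a gene had several probe sets, the one brightest on average over the 4 arrays (log2) stood for it. The 2-fold cutoff is the study's, while the signal filter and the local spread (1.4826 times the median absolute deviation over 500 genes) were added here. Each group has 1 array, which limits the precision, so no test was run.

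The counting and the local spread were run on simulated pairs of arrays. Changes larger than the 2-fold cutoff were planted there in bright genes only. The run therefore does not cover calls of smaller changes or of dim genes. The members and lists were chosen with earlier results of these data known. Values on all 4 arrays are given for *Wnt1*, for *Axin2*, *Lef1*, *Nkd1* and *Znrf3*, for genes past the 2-fold cutoff or 2 local spreads, and for genes past 1 local spread the same way at both stages, and other genes printed with such values were picked after they were seen. Alternatives covered scaling, filter, dim values, probe set choice and the neighbours of the local spread. Python 3.11.15 was used with pandas 2.3.3 and numpy 2.4.6 for the counts, statsmodels 0.14.6 for loess, and matplotlib 3.10.9 for the plots.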

Additional observations from a re-analysis of the deposited data

Results flagged for a closer look

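The genotype difference ran in opposite directions at the 2 stages, each time by more than 1 local spread, in 4 of the 43 Wnt genes above the filter at both, where 6.70% of all genes did so. *Dkk2* had a log2 change of -0.34 at E12.5 and 0.45 at E11.5, *Sfrp4* had 0.40 and -0.75, *Fzd4* had 0.30 and -0.25, and *Wnt2* had 0.42 and -0.41. The difference between the stages was not tested, since each group has 1 array, and stage and tissue change together. *Dkk2* has 1 probe set with signals far above the medians, so that only the scaling could move its changes, and over the scalings tried they ran from -0.34 to -0.28 at E12.5 and from 0.39 to 0.45 at E11.5. *Wnt2* at E12.5 passed the filter only through Hand2NC (113 in Hand2NC and 84.4 in wild-type), and *Sfrp4* at E11.5 only through wild-type (82.0 in Hand2NC and 138 in wild-type). When signals under the median were set to it, the E11.5 change of *Sfrp4* was -0.45. For *Fzd4* another probe set above the filter had -0.30 at E12.5 and 0.01 at E11.5.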

How the results depend on the processing

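No paired analysis was possible because each group has 1 array. Of 100 alternative values of the counts and medians, 89 stayed close to the value reported. For a median, close meant a move smaller than the typical local spread of a single Wnt gene, which is wide beside the medians. All medians passed by this rule, although the E11.5 median ran from -0.115 to 0.057, against 0.031 as reported. Many of the counts that stayed close were 0 in both settings. The share of 89 is therefore a weak measure of stability. The count of Wnt genes at least 2-fold lower at E11.5, 1 as reported, was 3 without the filter, 2 with the mean over probe sets, and 0 with every array at or above its median, with the brightest at or above its 75th percentile, or with dim values raised. At E12.5, without the filter 2 genes were at least 2-fold higher and 1 lower, and a call from any probe set gave 1 lower, all against 0 as reported. The mean over probe sets gave 1 gene at least 2-fold lower in E12.5 heads, against 0. With that mean the Wnt genes that differed the same way at both stages were 2, *Sfrp2* and *Wnt6*, both lower, in place of 6 of which 5 were lower (an alternative chosen after seeing the data). *Tcf7l1*, *Wnt6*, *Sfrp2* and *Fzd6* were lower by more than 1 local spread at both stages under all 3 other scalings tried for this measure, and *Ctnnb1* was so under 0 of them. Among 38 log2 changes of the 19 genes given on all arrays by rule, 27 kept their sign under every alternative, and the exceptions included *Fzd6*, *Axin1*, *Axin2* and *Wnt1* at E12.5. With 1 array per group no setting measures the spread between embryos.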

Other observations

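Among 16 general Wnt target genes above the filter at E12.5, 3 were higher and 7 lower in Hand2NC by more than 1 local spread, and of 15 at E11.5, 3 were higher and 3 lower. Among all genes, 17.0% were higher and 16.4% lower at E12.5, and 16.2% were higher and 17.5% lower at E11.5. *Bmp4*, a growth factor of facial mesenchyme and ectoderm, had signals of 1116 in Hand2NC and 899 in wild-type at E12.5, and of 1088 in Hand2NC and 902 in wild-type at E11.5, with both mutant arrays above both wild-type ones. *Ccnd2*, a cyclin of proliferating progenitors, had log2 changes of -0.13 at E12.5 and -0.27 at E11.5. *Celsr3*, a planar polarity cadherin of growing axons, was the only gene of the longer pathway list at least 2-fold higher in heads in both genotypes, with log2 differences of 1.35 in Hand2NC and 1.22 in wild-type. Some of these targets are also in the longer list of pathway genes, and the genes named were picked after their values were seen.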
